A study of Mus musculus with 10 samples.

Results

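The genes described here are 9 genes of retinoid handling: Cyp26a1, Cyp26b1, Rarb, Dhrs3, Lrat, Rbp4, Aldh1a1, Aldh1a7 and Bco1. They were chosen by role, with their levels and log2 fold changes in these same libraries already known, and were read from both liver count tables by Ensembl identifier. All 9 were found among the 55487 gene rows of each table, and all 9 passed the filter on low counts in both. Because those values were in view when the list was made, the 9 genes are described here by their levels and differences. How many of them passed the test across all genes is given once, as a description beside the share of all genes that passed, and their p-values are not printed. Tests between groups are reported for 62 other genes of the retinoid pathway and for marker genes of the liver's cell types.

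The study asked how lipid supply and CD36-bearing macrophages bear on liver regeneration. Every liver, controls included, was a remnant left by partial hepatectomy (PHx), an operation that takes out much of the liver and leaves the rest to regrow. In the diet experiment, C57BL/6J mice aged 8 weeks were given a high-fat diet (HFD) or regular chow for 7 days, underwent PHx, and gave liver RNA 40 hours later, with 3 libraries per group. In the inhibitor experiment, C57BL/6J mice aged 8 weeks received SSO at 40 mg/kg or the solvent alone (Vehicle) 1 day ahead of PHx, and liver RNA was collected 48 hours past the operation (4 libraries per group). What SSO stands for is not written in the labels; in studies of CD36 it usually stands for sulfosuccinimidyl oleate, a blocker of fatty acid uptake through that receptor. The 2 experiments are separate tables with their own controls, and no test was made across them.

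Retinoids are vitamin A and the compounds made from it. The liver is the main store of vitamin A: stellate cells hold it as retinyl esters, hepatocytes load retinol onto a carrier protein for export, and dehydrogenases turn retinol into retinaldehyde and then into retinoic acid. Retinoic acid binds the receptors RARA, RARB and RARG, which pair with RXR proteins on DNA, and enzymes of the CYP26 family oxidise it for removal. Cyp26a1 and Rarb are textbook targets that retinoic acid itself induces.

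The diet libraries held 31.9 to 39.9 M counts each and the inhibitor libraries 25.2 to 30.4 M. Levels are given as CPM, the counts of a gene per 1000000 counts of the TMM-scaled library, a scale on which 3 counts, the limit that a count of 0 allows, equal 0.077 to 0.0922 CPM in the diet libraries and 0.0817 to 0.136 CPM in the inhibitor libraries. Hepatocyte markers summed to at least 67100 CPM in every library. All the mice are labelled male, but the 8 inhibitor libraries held 698 to 1770 CPM of Xist and 0 counts of Ddx3y, a gene of the Y chromosome, while the 6 diet libraries held at most 0.62 CPM of Xist and at least 55 CPM of Ddx3y. In both experiments the control libraries differed more among themselves than the treated libraries did. The measure was the chi-square of gene counts per degree of freedom between 2 libraries. Pairs of HFD libraries were at 30 to 48.7 and pairs of chow libraries at 172 to 353. Pairs of SSO libraries were at 15 to 59.3. The 3 pairs with Vehicle 2 were at 254 to 467, and the other pairs of Vehicle libraries at 108 to 217. Glul, a marker of hepatocytes around the central vein, was at 618 to 1220 CPM in SSO, against 65.3, 967, 54.2 and 113 CPM in Vehicle 1 to 4. Gpnmb, a marker of lipid-laden macrophages, was at 0.0728 to 2.9 CPM in SSO, against 124, 0, 121 and 13.2 CPM in Vehicle 1 to 4. The percentage of counts from mitochondrial genes was 15.2 to 17.6 in SSO, against 4.99, 22.5, 11.5 and 9.15 in Vehicle 1 to 4. Vehicle 1 and Vehicle 3 were thus highest in Gpnmb and lowest in Glul, and Vehicle 2 had the lowest Gpnmb, the highest Glul and the highest mitochondrial percentage of the 4. Log2 fold changes of the 9 genes in the inhibitor experiment are therefore also given without Vehicle 1 and Vehicle 3 and without Vehicle 2.

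The promoter sequences are shown first because Cyp26a1 and Rarb are known to be induced through repeats of the kind searched for here, and because Aldh1a1 and Aldh1a7 share a long stretch. RefSeq promoters (GRCm38.p6, 250 bases before to 50 bases after the annotated start) were found for all 9 genes. They were searched on both strands for a direct repeat with 1, 2 or 5 bases between the half-sites. A half-site was any of AGGTCA (the consensus of the family), or AGTTCA (as in several known elements), or, with G in place of the first A, either GGGTCA (from the consensus) or else GGTTCA. A repeat of such half-sites is the arrangement that RAR and RXR pairs are known to bind. In the lines that follow, capitals mark the half-sites; each strand is written 5′ to 3′ in the direction of the gene, so a repeat on the other strand appears as its reverse complement.
Cyp26a1, chr19:37697703-37697797, plus strand: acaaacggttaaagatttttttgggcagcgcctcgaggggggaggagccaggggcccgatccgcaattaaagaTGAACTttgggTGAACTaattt
Rarb, chr14:16575507-16575535, minus strand: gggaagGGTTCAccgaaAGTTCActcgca
Bco1, chr8:117095732-117095826, plus strand: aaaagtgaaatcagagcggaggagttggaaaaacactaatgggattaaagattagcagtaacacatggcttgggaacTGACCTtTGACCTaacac
The spacing of 5 was found in Cyp26a1, 32 to 16 bases before the start, and in Rarb, 53 to 37 bases before it. Of 27025 genes with a promoter in the RefSeq table, 31 hold that arrangement, which is 0.115%. Cyp26a1 and Rarb were known beforehand to be induced through such repeats, and the half-sites included letters from known elements. Their matches are therefore not a test, and nothing is read from that share. The spacing of 1 was found in Bco1, 56 to 44 bases before the start, and in 0.263% of all genes. The spacing of 2 occurs in 0.311% of genes and in none of the 9. The Rarb window lies in an exon of an annotated Rarb transcript, and the windows of Cyp26a1 and Bco1 overlap no annotated exon. A match is a description of letters, and these files hold no measurement of binding.

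Another pair of promoters shows how close Aldh1a1 and Aldh1a7 are. Both genes lie on chromosome 19, on opposite strands. Aldh1a1 has 2 promoters in the RefSeq table, and the one with the higher coordinates was used here. Aldh1a7 has 1. Capitals mark the longest run the 2 windows share, 65 bases, which ends 30 bases before the start in both.
Aldh1a1, chr19:20601854-20601957, plus strand: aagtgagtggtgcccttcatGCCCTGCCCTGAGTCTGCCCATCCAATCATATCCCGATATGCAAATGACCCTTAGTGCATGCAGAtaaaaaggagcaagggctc
Aldh1a7, chr19:20727567-20727670, minus strand: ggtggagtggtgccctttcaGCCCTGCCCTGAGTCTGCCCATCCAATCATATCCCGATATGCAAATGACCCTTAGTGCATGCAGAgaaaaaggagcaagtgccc
Over 240 bases upstream, the 2 promoters were identical at 163 of 225 aligned bases (72.4%). Their coding sequences were identical at 1377 of 1503 bases (91.6%), so reads could be exchanged between them: of all stretches of 50 bases, 3.06% of those in Aldh1a1 and 7.49% of those in Aldh1a7 occur in the other. The handling of reads with several matches is not given. How far such reads change the 2 levels is unknown, so both are uncertain. Cyp26a1 and Cyp26b1 were identical at 62.0% of aligned coding bases and shared no stretch of 50 bases with each other or with any other gene.

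Cyp26a1 (ENSMUSG00000024987, chr19:37697798-37701536, plus strand, GRCm38) encodes the main liver enzyme that clears retinoic acid. In the diet experiment it was at 5.87, 7.37 and 1.6 CPM in HFD 1 to 3, against 41.8, 34.5 and 49 CPM in chow 1 to 3. All 3 HFD libraries lay below all 3 chow libraries, and HFD 3 was the lowest, with 54 counts. The means were 4.95 ± 3 CPM in HFD and 41.8 ± 7.26 CPM in chow (SD, n = 3 each), a log2 fold change of -3.08 ± 0.51 (SE of the fit). Leaving out 1 library at a time moved it between -3.48 and -2.66. Whole liver was sequenced, so fewer cells of a type and less RNA per cell cannot be told apart, here or in any difference that follows.

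The levels of 10 marker genes of hepatocytes around the central vein, the zone where Cyp26a1 is usually expressed, were summed in each diet library. The sum was 7250 to 9160 CPM in HFD and 11200 to 15500 CPM in chow, none of the 10 passed the test, and none was at 0 in all libraries. Most of the sum was Cyp2e1, at 4340 ± 811 CPM in HFD and 7980 ± 2970 CPM in chow, and Oat, at 1310 ± 192 CPM in HFD and 2250 ± 431 CPM in chow (SD, n = 3 each). Oat and Slc1a2 lay lower in HFD without overlap, as did 10.8% of all genes, while Rhbg, Axin2, Tbx3 and Gulo had log2 fold changes of 0.21 to 0.39. Glul was at 1080 ± 108 CPM in HFD and 1230 ± 204 CPM in chow (SD, n = 3 each). The part of this zone in the level of Cyp26a1 was not tested.

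With SSO, Cyp26a1 was at 44.3, 41.6, 48.9 and 48.7 CPM in libraries 1 to 4, against 30.7, 47.5, 22.6 and 15.4 CPM in Vehicle 1 to 4. The SSO libraries lay within a narrow band, while Vehicle 2 fell inside that band and the other Vehicle libraries below it, so the groups overlapped. The log2 fold change was 0.66 ± 0.29. It was 0.56 ± 0.37 without Vehicle 1 and Vehicle 3, and 1 ± 0.21 without Vehicle 2, the largest shift that leaving out 1 library gave. Vehicle 2 was also the only Vehicle library with Glul in the SSO range, and the other 3 were below that range in both genes. The 10 pericentral markers, of which none passed the test, summed to 8930 to 11000 CPM in SSO and 2890 to 13300 CPM in Vehicle, and their part in the level of Cyp26a1 was not tested.

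Cyp26b1 (ENSMUSG00000063415, chr6:84571414-84593908, minus strand) encodes another enzyme that oxidises retinoic acid. It was at 2.48, 3.17 and 6.17 CPM in HFD 1 to 3, against 5.03, 5.6 and 4.89 CPM in chow 1 to 3. HFD 1 and HFD 2 lay below every chow library and HFD 3 above every one, and the log2 fold change was -0.39 ± 0.34, with -0.87 ± 0.28 when HFD 3 was left out. HFD 3, the library with the highest Cyp26b1 in its group, was the one with the lowest Cyp26a1.

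Cyp26b1 separated the inhibitor groups: it was at 23.6, 31.3, 17.7 and 22.8 CPM in SSO 1 to 4, against 11.2, 8.22, 8.6 and 6.38 CPM in Vehicle 1 to 4. The lowest SSO library lay above the highest Vehicle library. Means were 23.9 ± 5.62 CPM in SSO and 8.61 ± 2 CPM in Vehicle (SD, n = 4 each), a log2 fold change of 1.47 ± 0.23. Leaving out 1 library at a time gave 1.31 to 1.62, the fit without Vehicle 2 gave 1.45 ± 0.24, and that without Vehicle 1 and Vehicle 3 gave 1.72 ± 0.26.

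Levels of different genes can be compared only per length of transcript, as RPKM, the CPM divided by the exon length in kilobases. The ratio of the RPKM of Cyp26a1 to that of Cyp26b1 was 6.39, 6.27 and 0.697 in HFD 1 to 3, against 22.4, 16.6 and 27.1 in chow 1 to 3. HFD 3 was the only 1 of the 14 libraries in which Cyp26b1 had the higher RPKM. Between the inhibitor groups the ratio was 5.06, 3.59, 7.46 and 5.76 in SSO 1 to 4, against 7.37, 15.6, 7.08 and 6.53 in Vehicle 1 to 4, and the groups overlapped.

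**Figure D1:**
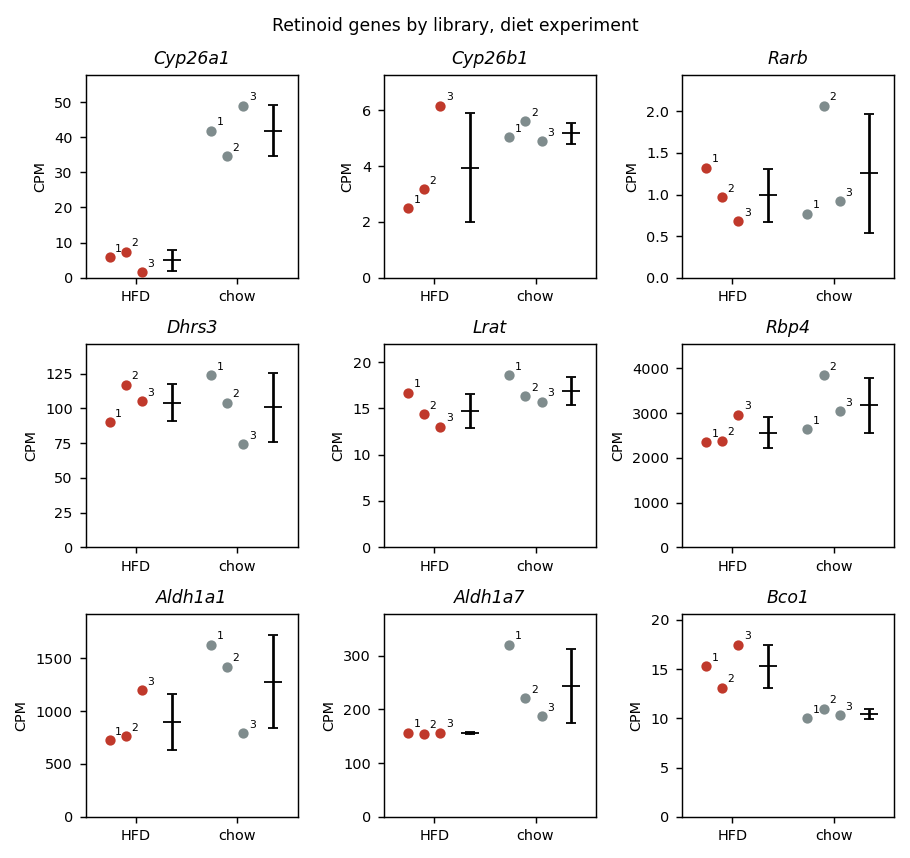
Each panel plots 1 of the 9 retinoid genes in the diet experiment, in CPM (linear axis from 0), with HFD libraries on the left and chow libraries on the right; points are libraries with their number, and the bar is the mean ± SD. Cyp26a1 sits between 1.6 and 7.37 CPM in HFD and between 34.5 and 49 CPM in chow, while Dhrs3, Lrat and Rbp4 overlap between the groups.

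**Figure D2:**
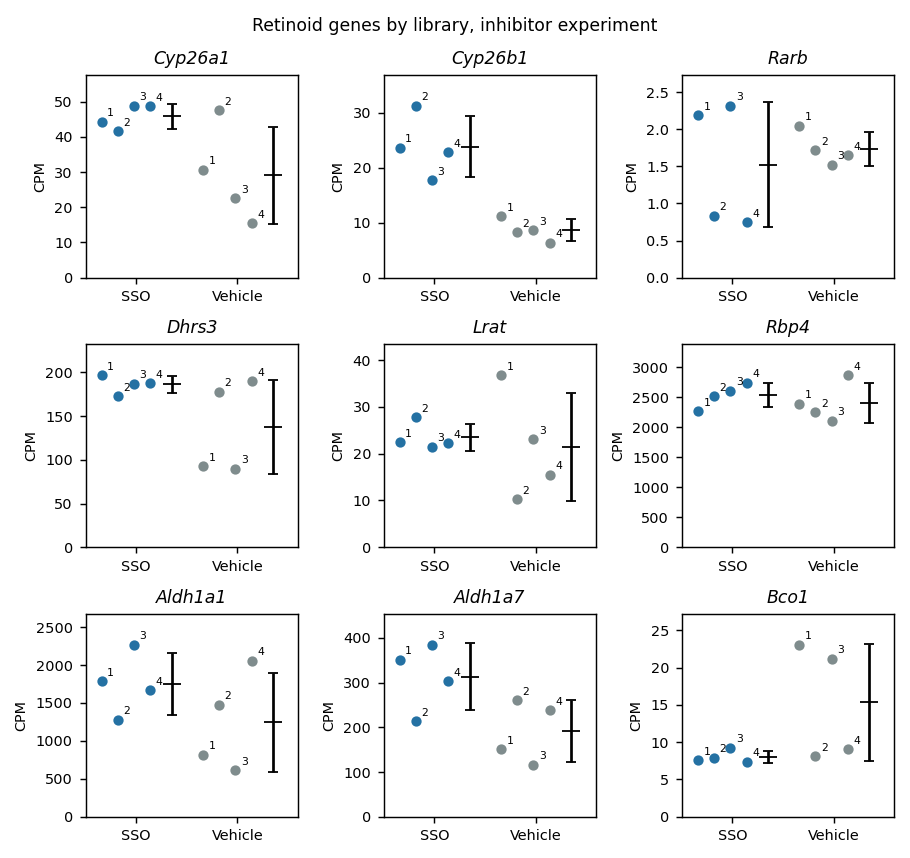
The same 9 genes in the inhibitor experiment, in CPM (linear axis from 0), with SSO libraries on the left and Vehicle libraries on the right; points are libraries with their number, and the bar is the mean ± SD. Cyp26b1 sits between 17.7 and 31.3 CPM in SSO and between 6.38 and 11.2 CPM in Vehicle, and Bco1 is at 23.1 and 21.2 CPM in Vehicle 1 and Vehicle 3 but under 10 CPM in the other 6 libraries.

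Rarb (ENSMUSG00000017491, chr14:16430839-16819156, minus strand) encodes a retinoic acid receptor whose own gene retinoic acid induces. It was at 1.32, 0.967 and 0.679 CPM in HFD 1 to 3, against 0.77, 2.07 and 0.922 CPM in chow 1 to 3. It was at 2.19, 0.837, 2.32 and 0.751 CPM in SSO 1 to 4, against 2.05, 1.72, 1.52 and 1.65 CPM in Vehicle 1 to 4. The groups overlapped in both experiments, with log2 fold changes of -0.34 ± 0.49 for HFD over chow and -0.19 ± 0.46 for SSO over Vehicle (-0.14 ± 0.58 without Vehicle 1 and Vehicle 3, -0.19 ± 0.50 without Vehicle 2), and these values rest on 21 to 79 counts per library. Exons of genes on the opposite strand cover 38.4% of its exon length, and 30.8% of its stretches of 50 bases also occur in Top2b. Since it is not stated whether counting used strand, reads from the stretches that Rarb and Top2b share cannot be told apart, and the level of Rarb is uncertain.

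Aldh1a1 (ENSMUSG00000053279, chr19:20492715-20643465, plus strand) encodes a dehydrogenase that oxidises retinaldehyde to retinoic acid. It was at 726, 760 and 1200 CPM in HFD 1 to 3, against 1630, 1420 and 790 CPM in chow 1 to 3. HFD 3 and chow 3 crossed into the range of the other group, and the log2 fold change was -0.51 ± 0.30. The inhibitor libraries gave 1790, 1280, 2270 and 1670 CPM in SSO 1 to 4, against 816, 1480, 617 and 2060 CPM in Vehicle 1 to 4. Vehicle 1 and Vehicle 3 were the low ones: the log2 fold change was 0.49 ± 0.38 over all 8 libraries, -0.02 ± 0.23 without them and 0.59 ± 0.40 without Vehicle 2.

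Aldh1a7 (ENSMUSG00000024747, chr19:20692953-20727562, minus strand) is the close copy of Aldh1a1 shown above. It was at 157, 155 and 157 CPM in HFD 1 to 3, against 321, 221 and 188 CPM in chow 1 to 3. The groups did not overlap, the HFD libraries were within 2 CPM of one another, and the log2 fold change was -0.64 ± 0.20. In the inhibitor experiment Aldh1a7 was at 351, 214, 385 and 303 CPM in SSO 1 to 4, against 151, 260, 116 and 238 CPM in Vehicle 1 to 4. SSO 2 fell among the Vehicle libraries, and the log2 fold change was 0.71 ± 0.29, or 0.33 ± 0.22 without Vehicle 1 and Vehicle 3 and 0.89 ± 0.28 without Vehicle 2. The ratio of Aldh1a1 to Aldh1a7 in RPKM was 1.93, 2.05 and 3.2 in HFD 1 to 3, against 2.12, 2.69 and 1.75 in chow 1 to 3. It was 2.13, 2.5, 2.47 and 2.3 in SSO 1 to 4, against 2.26, 2.38, 2.22 and 3.62 in Vehicle 1 to 4, so Aldh1a1 had the higher RPKM in all 14 libraries.

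Dhrs3 (ENSMUSG00000066026, chr4:144892827-144928209, plus strand) encodes a reductase that turns retinaldehyde back into retinol. It was at 90.2, 117 and 105 CPM in HFD 1 to 3, against 124, 104 and 74.4 CPM in chow 1 to 3, with overlapping groups and a log2 fold change of 0.04 ± 0.20. The inhibitor libraries gave 197, 173, 187 and 188 CPM in SSO 1 to 4, against 92.4, 178, 89.7 and 190 CPM in Vehicle 1 to 4. Vehicle 2 and Vehicle 4 lay within the SSO range and Vehicle 1 and Vehicle 3 below it. The log2 fold change was 0.43 ± 0.26 over all libraries, 0.02 ± 0.15 without Vehicle 1 and Vehicle 3, and 0.58 ± 0.26 without Vehicle 2.

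Bco1 (ENSMUSG00000031845, chr8:117095854-117133720, plus strand) encodes the enzyme that cleaves beta-carotene into retinaldehyde. It was at 15.3, 13.1 and 17.5 CPM in HFD 1 to 3, against 9.99, 11 and 10.3 CPM in chow 1 to 3. Every HFD library lay above every chow library, and the log2 fold change was 0.55 ± 0.16, the only one of the 9 in which HFD was higher with no overlap. In the inhibitor experiment Bco1 was at 7.62, 7.9, 9.27 and 7.37 CPM in SSO 1 to 4, against 23.1, 8.12, 21.2 and 9.08 CPM in Vehicle 1 to 4. Only Vehicle 1 and Vehicle 3 were high. The log2 fold change was -0.94 ± 0.34 over all 8 libraries, -0.10 ± 0.23 without those 2 and -1.15 ± 0.28 without Vehicle 2. The 8 markers of monocyte-derived macrophages, Cd36 among them, summed to 47.6 to 53.5 CPM in SSO and 102 to 530 CPM in Vehicle. None of them was at 0 in all libraries. In all 8 the log2 fold change was below 0, with a median of -2.86 beside -0.04 for all genes. Without the adjustment, 7 of the 8 (87.5%) had an edgeR p under 0.05, where 20.5% of all genes did. The part of these cells in the level of Bco1 was not tested. Of the 8, 1 passed the test: Cd36, the receptor the study is about, fell to 35.8 ± 3.81 CPM in SSO, against 87 ± 14 CPM in Vehicle (SD, n = 4 each; log2 fold change -1.28 ± 0.16, edgeR adjusted p 0.0196). It was the most abundant of the 8 in SSO and made up most of their sum there, and no sum without it was made. Its call was lost in the fits without any 1 SSO library and in that without Vehicle 1, fits in which no gene passed.

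**Figure D3:**
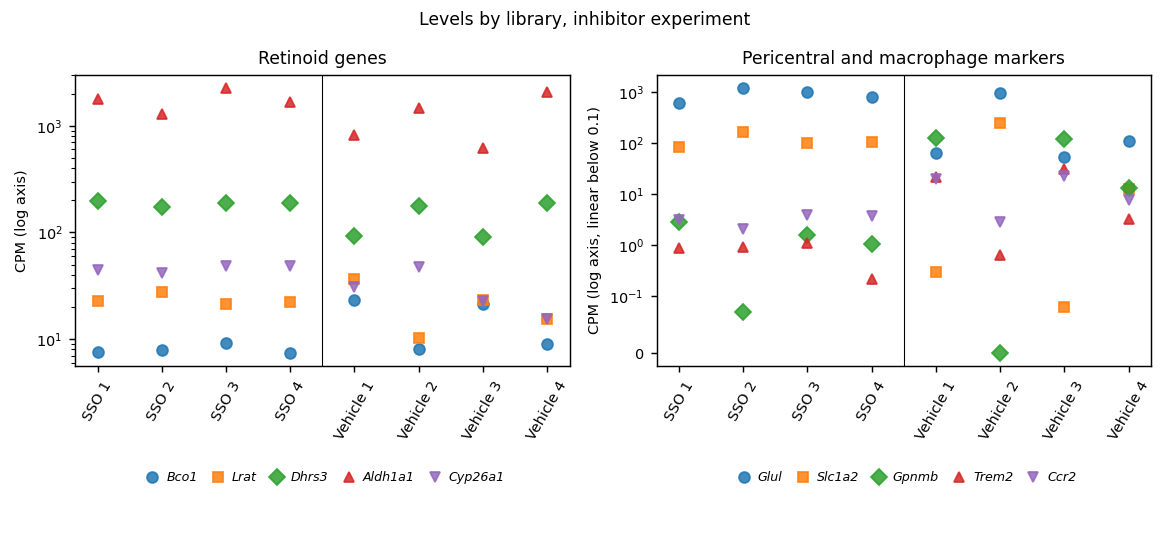
Left, 5 retinoid genes in each inhibitor library (CPM, log axis); right, the pericentral markers Glul and Slc1a2 and the macrophage markers Gpnmb, Trem2 and Ccr2 in the same libraries (CPM, log axis, linear below 0.1). SSO libraries are left of the line and Vehicle libraries right of it: Vehicle 1 and Vehicle 3 have Gpnmb at 124 and 121 CPM, Slc1a2 at 0.297 and 0.0817 CPM, the highest Bco1 and the lowest Dhrs3 and Aldh1a1.

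Lrat (ENSMUSG00000028003, chr3:82892579-82903973, minus strand) encodes the enzyme that esterifies retinol for storage, and in liver it is expressed mainly by stellate cells. It was at 16.7, 14.4 and 13 CPM in HFD 1 to 3, against 18.6, 16.3 and 15.7 CPM in chow 1 to 3. The groups overlapped, and the log2 fold change was -0.20 ± 0.15. The 14 stellate cell markers, none of them at 0 in all libraries, summed to 383 to 455 CPM in HFD and 498 to 584 CPM in chow. None of the 14 passed the test. Lower in HFD without overlap, as 10.8% of all genes were, lay 3 of them: Vipr1, Dcn at 137 ± 6.82 CPM in HFD and 206 ± 16.3 CPM in chow, and Ecm1 at 71.8 ± 9.08 CPM in HFD and 108 ± 13 CPM in chow (SD, n = 3 each). Colec11, Ngfr, Angptl6 and Col14a1 had log2 fold changes of 0.17 to 0.22, and the part of stellate cells in the level of Lrat was not tested.

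Lrat in the inhibitor libraries was at 22.5, 27.8, 21.5 and 22.2 CPM in SSO 1 to 4, against 36.8, 10.3, 23.1 and 15.5 CPM in Vehicle 1 to 4. The SSO libraries lay inside the wider Vehicle range, which ran from Vehicle 2 at its low end to Vehicle 1 at its high end. The log2 fold change was 0.13 ± 0.33, but -0.11 with scaling by library size alone, 0.86 ± 0.22 without Vehicle 1 and Vehicle 3, and -0.10 ± 0.25 without Vehicle 2. The same markers summed to 354 to 542 CPM in SSO and 349 to 544 CPM in Vehicle.

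Rbp4 (ENSMUSG00000024990, chr19:38116629-38125281, minus strand) encodes the plasma carrier of retinol and was the most abundant of the 9. It was at 2350, 2380 and 2960 CPM in HFD 1 to 3, against 2640, 3850 and 3040 CPM in chow 1 to 3, with a log2 fold change of -0.31 ± 0.21. It was at 2270, 2520, 2610 and 2740 CPM in SSO 1 to 4, against 2390, 2250, 2110 and 2870 CPM in Vehicle 1 to 4, with a log2 fold change of 0.08 ± 0.22, or -0.08 with scaling by library size alone, -0.01 ± 0.18 without Vehicle 1 and Vehicle 3 and 0.05 ± 0.23 without Vehicle 2. The groups overlapped in both experiments.

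Per length, the top and the bottom of the order of the 9 genes were the same in all 4 groups, and the middle was not. Rbp4 had the highest mean, at 1910 RPKM in HFD, 2370 in chow, 1890 in SSO and 1790 in Vehicle. Aldh1a1, Aldh1a7 and Dhrs3 followed in that order in all 4 groups, and Rarb was last at 0.188 to 0.33 RPKM. The ranges of these neighbours met in Vehicle, where Aldh1a1 spanned 125 to 417 RPKM Aldh1a7 56.3 to 126 RPKM and Dhrs3 30.6 to 65.1 RPKM over the libraries, so that each met the next. Lower in the order in Vehicle, the ranges of Cyp26a1 and Bco1, of Bco1 and Lrat, and of Lrat and Cyp26b1 also met. Bco1 had rank 5 in HFD, 6 in chow and Vehicle and 8 in SSO. Cyp26b1 had rank 6 in SSO and 8 in the other groups, and Lrat rank 6 in HFD and 7 in the others. Cyp26a1 was the fifth of the 9 in chow, SSO and Vehicle but the seventh in HFD. Its mean was 2.49 ± 1.51 RPKM in HFD and 21.1 ± 3.66 RPKM in chow (SD, n = 3 each), and 23.1 ± 1.78 RPKM in SSO and 14.6 ± 6.95 RPKM in Vehicle (SD, n = 4 each). In HFD, its range of 0.804 to 3.72 RPKM enclosed that of Lrat, 2.43 to 3.11 RPKM, so the 2 genes did not differ beyond their spread, and it also met that of Cyp26b1, 0.464 to 1.15 RPKM. Among the low genes of SSO, Cyp26b1 at 4.46 ± 1.05 RPKM and Lrat at 4.39 ± 0.539 RPKM also did not differ beyond their spread (SD, n = 4 each).

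Counted as a list, 1 of the 9 genes (Cyp26a1, lower) had an edgeR adjusted p under 0.05 in HFD over chow, where 2.32% of 15589 genes did and 0.718% did in that direction. Besides Cyp26a1, Aldh1a7 lay lower and Bco1 higher in HFD without overlap between the groups, as did 10.8% and 11.2% of all genes, 21.9% in either direction. In SSO over Vehicle, 1 of the 9 (Cyp26b1, higher) had an adjusted p under 0.05, where 0.45% of 15788 genes did and 0.317% did in that direction, and it was the only 1 of the 9 without overlap, where 6.14% of all genes lay higher and 5.62% lower, 11.8% in either direction. The median log2 fold change of the 9 was -0.34 for HFD over chow and 0.43 for SSO over Vehicle, beside -0.02 and -0.04 over all genes tested. Since these contrasts were known when the list was drawn up, nothing is read from the counts or medians. Among the fits that left out 1 library, Cyp26a1 passed only without HFD 3 and Cyp26b1 only without Vehicle 2 or Vehicle 4, although the log2 fold changes of both stayed in the ranges given above. In SSO over Vehicle, no gene of the whole table passed without any 1 SSO library or without Vehicle 1, and 16 did without Vehicle 3.

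**Figure D4:**
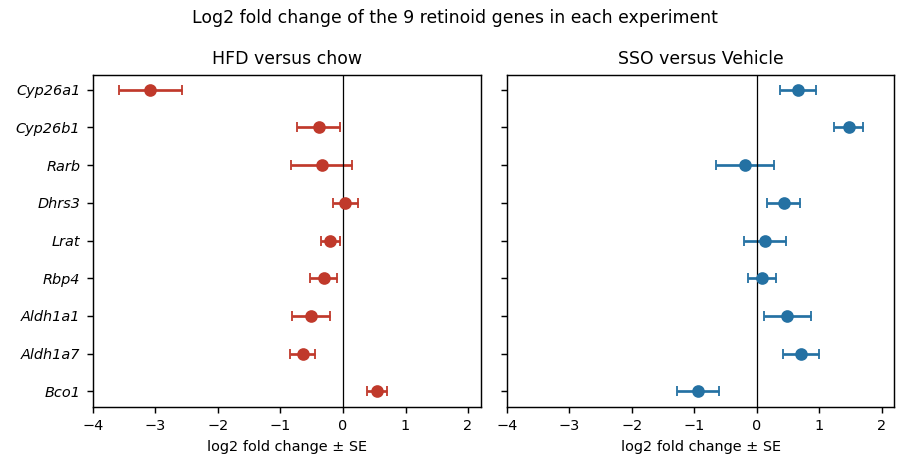
Log2 fold change of each of the 9 genes with its SE (bars), for HFD over chow on the left and SSO over Vehicle on the right; positive values are higher in HFD or in SSO. Cyp26a1 is at -3.08 on the left and 0.66 on the right, Cyp26b1 at -0.39 and 1.47, and Bco1 at 0.55 and -0.94.

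The 62 other pathway genes were tested in the same fits, and 51 passed the filter on low counts in each experiment. In HFD over chow, none rose and 1 fell (Rdh16), where 1.6% of all genes rose and 0.718% fell; 16 had a log2 fold change above 0 and 35 below, with a median of -0.15 beside -0.02 for all genes. In SSO over Vehicle, 1 rose (Rdh11) and none fell, where 0.317% of all genes rose and 0.133% fell; 29 lay above 0 and 22 below, with a median of 0.09 beside -0.04. Without the adjustment, 10 of the 51 (19.6%) had a p under 0.05 in HFD over chow, where 15% of all genes did, and 12 (23.5%) had one in SSO over Vehicle, where 20.5% of all genes did, shares near those of all genes.

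None of the 5 genes of binding and transport tested passed in either experiment. Ttr, which carries RBP4 in plasma, was at 3750 ± 172 CPM in HFD and 4320 ± 751 CPM in chow (SD, n = 3 each), and at 7920 ± 575 CPM in SSO and 5730 ± 1380 CPM in Vehicle (SD, n = 4 each). Stra6l, a membrane receptor for RBP4, was at 251 ± 53.6 CPM in HFD and 252 ± 62.2 CPM in chow, and at 383 ± 19 CPM in SSO and 279 ± 83.7 CPM in Vehicle. The groups overlapped for both genes in both experiments. Stra6, the other receptor for RBP4, had at most 0.0686 CPM in any library.

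Among the 21 oxidation and reduction genes tested, Rdh16 (ENSMUSG00000069456), which oxidises retinol, fell in HFD. It was at 18.4, 27.1 and 41.8 CPM in HFD 1 to 3, against 71.1, 92.9 and 72.8 CPM in chow 1 to 3, a log2 fold change of -1.44 ± 0.28 with an edgeR adjusted p of 0.0439. No library overlapped, but the call was kept among the fits that left out 1 library only without HFD 3, and the adjusted p reached 0.159 without HFD 2. It was also lost with scaling by library size alone (adjusted p 0.059) and with no filter (adjusted p 0.0844). After SSO or solvent, Rdh16 was at 182, 240, 169 and 189 CPM in SSO 1 to 4, against 25.9, 127, 17.2 and 80 CPM in Vehicle 1 to 4, with Vehicle 1 and Vehicle 3 lowest (log2 fold change 1.65 ± 0.56, edgeR adjusted p 0.158). Every SSO library lay above every Vehicle library, as 6.14% of all genes did. Rdh16 passed with DESeq2 (adjusted p 0.0205) and in edgeR without Vehicle 2 (log2 fold change 2.25, adjusted p 0.0229), fits that called 1218 and 2646 genes. Rdh16 shares 14.5% of its stretches of 50 bases with 15 other genes, 6.28% with Rdh9, so its level is uncertain.

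Rdh11 (ENSMUSG00000066441), a reductase of retinaldehyde, rose with SSO. It was at 97.5, 111, 103 and 117 CPM in SSO 1 to 4, against 38.5, 64.3, 36.1 and 42.1 CPM in Vehicle 1 to 4, a log2 fold change of 1.24 ± 0.20 with an edgeR adjusted p of 0.0369. All SSO libraries lay above all Vehicle libraries. The call was lost without any 1 SSO library, without Vehicle 1 or without Vehicle 3 (adjusted p 0.103 to 0.17), and without both Vehicle 1 and Vehicle 3 (log2 fold change 1.01, adjusted p 0.0552). No gene passed in the fits without 1 SSO library or without Vehicle 1, and 16 genes did without Vehicle 3. In HFD over chow, Rdh11 was at 33.5 ± 6.33 CPM in HFD and 41.3 ± 21.8 CPM in chow (SD, n = 3 each; log2 fold change -0.30 ± 0.37). Adh1, an alcohol dehydrogenase that also oxidises retinol, was at 1130 ± 125 CPM in HFD and 1650 ± 514 CPM in chow, and at 3050 ± 69.9 CPM in SSO and 2120 ± 412 CPM in Vehicle. Rdh7, another retinol dehydrogenase, was at 784 ± 14.8 CPM in HFD and 825 ± 77.1 CPM in chow, and at 801 ± 33.5 CPM in SSO and 736 ± 292 CPM in Vehicle. Neither Adh1 nor Rdh7 passed the test in either experiment.

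None of the 3 other genes of retinoic acid breakdown passed the test in either experiment. Cyp26c1 lies 4399 bases before Cyp26a1 on the same strand of chromosome 19 and encodes the third enzyme of the family. It was at 1.16, 0.574 and 0.236 CPM in HFD 1 to 3, against 2.98, 0.706 and 1.72 CPM in chow 1 to 3 (log2 fold change -1.45 ± 0.66, edgeR adjusted p 0.355). It was at 3.12, 2.51, 4.28 and 2.54 CPM in SSO 1 to 4, against 1.88, 1.36, 1.12 and 0.617 CPM in Vehicle 1 to 4 (log2 fold change 1.32 ± 0.41, adjusted p 0.135). The groups overlapped in the diet experiment and not in the inhibitor experiment. Cyp2c39, a mouse enzyme that also oxidises retinoic acid, was at 1.65, 3.02 and 2.81 CPM in HFD 1 to 3, against 4.62, 5.62 and 5.19 CPM in chow 1 to 3 (log2 fold change -1.05 ± 0.28, adjusted p 0.108). It was at 7.87 ± 0.943 CPM in SSO and 5.69 ± 2.93 CPM in Vehicle (SD, n = 4 each; log2 fold change 0.47 ± 0.36).

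No gene of the other 3 lists passed the test in either experiment. Of the 6 genes of ester formation and hydrolysis, 5 had a log2 fold change below 0 in HFD over chow, where 8216 of 15589 genes did. In SSO over Vehicle 3 of them lay below 0, where 8368 of 15788 genes did. Ces1d, a carboxylesterase that hydrolyses retinyl esters, was at 176 ± 89 CPM in HFD and 267 ± 172 CPM in chow (SD, n = 3 each), and at 315 ± 37.2 CPM in SSO and 396 ± 285 CPM in Vehicle (SD, n = 4 each). Pnpla2, a triglyceride lipase, was at 66.4 ± 9.96 CPM in HFD and 93.2 ± 29 CPM in chow, and at 69.6 ± 5.4 CPM in SSO and 72.9 ± 9.85 CPM in Vehicle. Among receptors and cofactors, Rxra, the partner of the retinoic acid receptors, was at 407 ± 25.6 CPM in HFD and 422 ± 104 CPM in chow, and at 214 ± 8.87 CPM in SSO and 250 ± 70 CPM in Vehicle. Ncor1, a corepressor of these receptors, was at 90.6 ± 4.13 CPM in HFD and 74.8 ± 12 CPM in chow, and at 72.7 ± 4.13 CPM in SSO and 75 ± 2.06 CPM in Vehicle. Among listed targets of retinoic acid, Rarres2 was at 160 ± 20.2 CPM in HFD and 149 ± 23.9 CPM in chow, and at 156 ± 15.2 CPM in SSO and 124 ± 59.9 CPM in Vehicle. Tgm2, a transglutaminase that retinoic acid induces, was at 143 ± 21.2 CPM in HFD and 107 ± 36.1 CPM in chow, and at 79.3 ± 17.2 CPM in SSO and 138 ± 63.3 CPM in Vehicle (log2 fold change -0.80 ± 0.31, edgeR adjusted p 0.191).

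**Figure D5:**
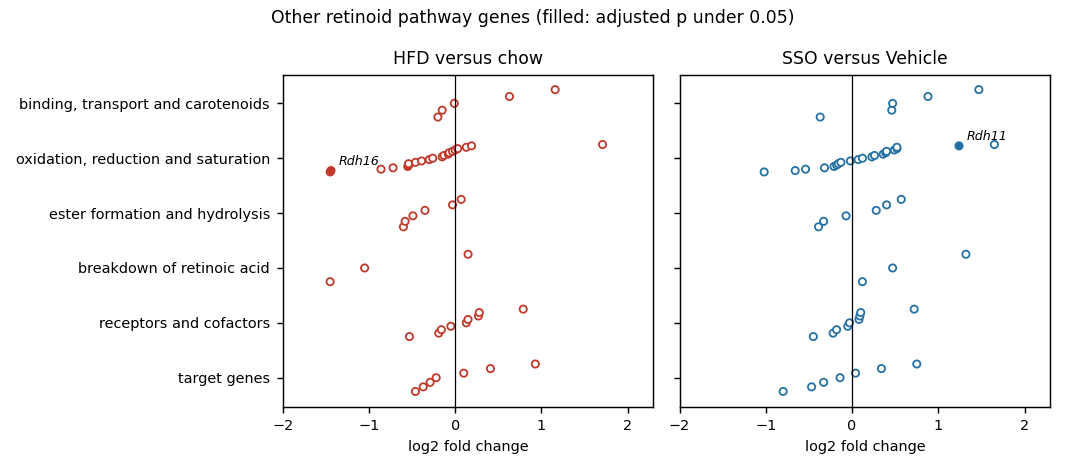
Log2 fold change of the 51 other retinoid pathway genes tested, by role (rows), for HFD over chow on the left and SSO over Vehicle on the right; each point is a gene, spread vertically within its row only for legibility. Filled points had an edgeR adjusted p under 0.05 and are named: Rdh16 at -1.44 on the left, and Rdh11 at 1.24 on the right.

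The genes whose pattern lay nearest to that of Cyp26a1 were found by the mean absolute difference between log2 CPM values over the 14 libraries, after each gene was centred within its experiment. Among 8916 genes with a mean log2 CPM of at least 3 in either experiment, the 5 nearest were Asl (0.55), Mvd (0.56), Gstt3 (0.56), Hamp (0.57) and Fdft1 (0.59), beside a median of 1.02 over all ranked genes. For all 5 the distance was larger over the diet libraries (0.63 to 0.98) than over the inhibitor libraries (0.27 to 0.51). Hamp was at 0.98 in the diet libraries and 0.27 in the inhibitor libraries. Asl encodes a urea cycle enzyme, Mvd and Fdft1 enzymes of cholesterol synthesis, Gstt3 a glutathione transferase and Hamp the iron hormone hepcidin. Asl, for example, was at 192, 236 and 226 CPM in HFD 1 to 3, against 574, 714 and 1130 CPM in chow 1 to 3, and at 971, 867, 932 and 879 CPM in SSO 1 to 4, against 390, 752, 333 and 858 CPM in Vehicle 1 to 4. Like Cyp26a1 it was lower in HFD without overlap, but Vehicle 4, the lowest inhibitor library in Cyp26a1, was close to the SSO libraries in Asl. Fdft1 overlaps exons on the other strand over 18.3% of its length, and Gstt3 and Hamp share 12.5% and 16.6% of their stretches of 50 bases with other genes, so these 3 levels are uncertain. Of the other retinoid genes, the nearest were Aldh1a7 (0.82, rank 282) and Cyp26b1 (0.83, rank 369), and the farthest was Bco1 (1.39, rank 8566); Rarb was below the level set for ranking. The 14 libraries come from 2 experiments, each scaled on its own, and these distances are a description with no test.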

How the data were processed

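Whole-liver RNA was sequenced in 6 libraries of the diet experiment and 8 of the inhibitor experiment. The authors deposited raw counts, 1 whole number for each Ensembl gene and library, not normalized. The build GRCm38 is named in the submitters' processing notes, as are, with no order or settings, featureCounts 2.0.2, HISAT2 2.2.1, DESeq2 and Trim Galore 0.6.1. Not given in the sources used here: strand use, the handling of reads with several matches and the annotation release. Of 55487 identifiers, 55141 matched a symbol of GENCODE M21. Columns were placed in groups by their names. The labels describe separate mice in the diet experiment; for the inhibitor experiment they name 8 mice per group and do not tie them to the 4 libraries, so its p-values reflect the spread over libraries only. Within each group, every pair of libraries differed by more than sampling noise.

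Each table was fitted on its own with edgeR 4.0.16 in R 4.3.3: TMM scaling, filterByExpr, quasi-likelihood test, Benjamini-Hochberg adjustment over all genes tested, threshold 0.05. The fit was tested on simulated data. Alternatives were DESeq2 1.42.0, limma-voom (limma 3.58.1), other scalings, no filter, a replicate block and leaving out libraries. The limits for a count of 0 cover counting error only, while SD and SE hold the spread between libraries. The 9 genes, the pathway and marker lists and the alternatives were chosen with earlier results of these data known. Besides the 9, the text names pathway genes that passed the test, the 2 most abundant genes of each pathway list and the 5 genes nearest to Cyp26a1; Stra6, and markers such as Glul, Cyp2e1, Dcn and Gpnmb, were named after their values were seen. An item of the pathway lists is not reported here. The sorted macrophage libraries were not analysed here.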

Additional observations from a re-analysis of the deposited data

Results flagged for a closer look

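Lrat had 1 SSO library away from the rest: SSO 2 was at 27.8 CPM, while the other 3 SSO libraries were between 21.5 and 22.5 CPM. The gap to its nearest neighbour was 0.841 of the range of the group. No cause was tested.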

How the results depend on the processing

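Under every alternative run, the log2 fold change kept its sign for Cyp26a1, Cyp26b1, Aldh1a1, Aldh1a7, Bco1, Lrat and Rbp4 in HFD over chow, and for Cyp26a1, Cyp26b1, Aldh1a7, Bco1 and Dhrs3 in SSO over Vehicle. The others turned in at least 1 alternative: Dhrs3 (-0.14 to 0.22) and Rarb (-0.61 to 0.23) in HFD over chow without 1 library, Rarb (-0.46 to 0.04) and Lrat (-0.10 to 0.52) in SSO over Vehicle without 1 library, and Aldh1a1 (-0.02) and Rbp4 (-0.01) without Vehicle 1 and Vehicle 3, an alternative chosen after seeing the data. Scaling by library size alone moved the median log2 fold change of all genes to 0.13 in HFD over chow (-0.02 with TMM) and -0.20 in SSO over Vehicle (-0.04 with TMM), and turned Lrat (-0.11) and Rbp4 (-0.08) in SSO over Vehicle. Of the 9 genes, 1 passed the test in HFD over chow, and 0 to 1 did when 1 library was left out. With no filter the 1 gene was Aldh1a7 and not Cyp26a1. In SSO over Vehicle 1 passed, but 0 did with library size alone and 0 to 3 when 1 library was left out. The 3, without Vehicle 2, were Cyp26a1, Cyp26b1 and Bco1, in a fit where 2646 of 16339 genes passed. Over all genes, the 361 calls in HFD over chow became 926 with DESeq2, 672 with no filter and 86 to 681 without 1 library. The 71 calls in SSO over Vehicle became 37 with library size alone, 1218 with DESeq2, 205 with no filter and 0 to 2646 without 1 library. The 0 came without any 1 SSO library or without Vehicle 1, and the 2646 without Vehicle 2. Of the other pathway genes, the 1 call in HFD over chow became 6 with DESeq2, 2 with no filter and 0 to 3 without 1 library. Rdh16 was not among the calls with no filter (Aox1, lower, and Scarb1, higher), without chow 1 or without chow 3, and with library size alone the 1 call was Scarb1, higher in HFD. The 1 call in SSO over Vehicle became 6 with DESeq2 and 0 to 7 without 1 library, and without Vehicle 1 and Vehicle 3 it was Fabp5 and not Rdh11. The 7 came from the fit without Vehicle 2, where 2646 of 16339 genes passed. The causes were not tested.

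Libraries with the same number did not deviate together (correlations of -0.11 to 0.02 in the diet experiment and -0.07 to 0.03 in the inhibitor experiment). With so few libraries these correlations cannot exclude that samples were paired, and the main fit used no pairing. With a replicate block, 206 genes passed in HFD over chow and 47 in SSO over Vehicle, and 0 of the 9 retinoid genes passed in either. The alternatives planned for the macrophage libraries were not run. With 3 or 4 libraries per group and 21 to 79 counts behind Rarb, small differences were not detectable at this depth.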
